A study of Homo sapiens with 18 samples.

Results

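501mel is a human metastatic melanoma cell line that carries the BRAF V600E mutation, per the labels. Its transduced control line, NTC, was compared with its parental line, Par, so the comparison holds 4 of the 18 libraries of the series, 2 of each line. Par carried no construct. NTC had been transduced with Lenti-CRISPR V2, a single lentiviral vector for Cas9 and a guide RNA; the labels do not spell out NTC and give no target for its guide. The other lines of 501mel, KO1.8 and KO5.2, carried the same vector with a guide for ARID2, and their levels stand beside the comparison here. All lines were grown in DMEM with serum, and polyadenylated RNA was sequenced. The labels leave out clonality, time in culture after transduction, and the origin of the 2 libraries of a line. P-values therefore measure only how these libraries spread, which may be technical error, and a difference between NTC and Par is a difference between 1 transduced line and 1 parental line.

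Melanoma cell lines lie between a melanocytic state and less differentiated states. MITF and SOX10 are the transcription factors that drive pigment genes in the first, while the others show more matrix, YAP/TEAD and AP-1 driven transcription. BRAF V600E feeds the ERK pathway, whose output includes the Sprouty and DUSP feedback inhibitors. A comparison of a transduced control with its parent asks how far a line moves between such states when the gene under study, ARID2, is not edited.

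The 8 libraries of 501mel held 16749707 to 20606855 counts. Melanocyte lineage markers were high in all 4 libraries of the comparison: PMEL lay at 3025 and 3072 CPM (counts per 1000000 counts of the library, after TMM scaling) in Par and at 2618 and 2478 in NTC. SOX10 lay at 452 and 402 CPM in Par and at 475 and 444 in NTC. MITF lay at 949 and 887 CPM in Par and at 864 and 824 in NTC. Markers of other cell types were scarce. None of the 12 blood cell markers passed the filter on low counts, and the 2 fibroblast markers that passed summed to at most 1.77 CPM. The 2 endothelial markers that passed summed to at most 10.5 CPM in a library, and the 2 keratinocyte and epithelial markers to at most 23.9 CPM.

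ARID2, a defining subunit of PBAF, a chromatin remodeller of the SWI/SNF class, was at 43.1 and 40.9 CPM in Par and at 40.9 and 43.2 CPM in NTC. The log2 fold change of NTC over Par was 0.00 with a standard error (SE) of 0.07 (edgeR quasi-likelihood test, adjusted p = 0.988). In KO1.8 and KO5.2 it lay between 19.8 and 31.9 CPM. None of the 4 PBAF subunit genes was called, and 1 of 22 genes of BAF and shared SWI/SNF subunits was, SS18L1, at a log2 fold change of -0.29 (SE 0.08, adjusted p = 0.0273), a call lost without NTC replicate 1, NTC replicate 2 or Par replicate 2.

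Without a change of ARID2, 2547 of 16230 genes tested differed between NTC and Par (15.7%; edgeR quasi-likelihood test, Benjamini-Hochberg adjusted p under 0.05, which is what "called" means here). Of these, 1098 were higher in NTC (6.77%) and 1449 lower (8.93%). Most differences were small, with a median absolute log2 fold change of 0.40 among the called genes. Among them 439 (2.70%) passed 2-fold, 159 higher and 280 lower. The excess of lower genes grew with size: past 8-fold, 12 genes were higher and 100 lower. The share called rose with the level of the gene, from 9.80% of the lowest-expressed genes to 15.7% and 21.6% in the middle and highest groups of 5410 genes each. Changes past 2-fold lay mostly in the lowest group, with 129 of the 159 higher and 244 of the 280 lower genes. The highest group held 6 and 10 of them. Without NTC replicate 1 the count fell to 1328, and without NTC replicate 2 to 1310.

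The 2 NTC libraries stood apart from all 6 other libraries of 501mel, Par and both ARID2 KO lines, for 69.9% of the called genes, against 28.8% of all genes tested. The 2 Par libraries stood apart from the 6 libraries with a vector for 20.5% of the called genes, against 10.8% of all tested. Counted without overlap, NTC alone was apart for 1666 called genes, Par alone for 406, both for 115 and neither for 360. These counts describe the order of the libraries and carry no test, because a called gene already separates NTC from Par. KO5.2 stood apart for 46.6% of the called genes (41.0% of all tested) and KO1.8 for 22.5% (23.1%).

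Among genes at a mean log2 CPM of at least 3 over the 4 libraries, EMP1, an epithelial membrane protein, fell most. It lay at 50.4 and 55.8 CPM in Par and at 7.85 and 7.31 CPM in NTC, a fall of 7.02-fold (log2 fold change -2.81, SE 0.09, adjusted p = 1.24e-10). Both KO lines lay above Par, at 105 to 204 CPM, so the NTC libraries were the lowest of the 8. NOX4, an NADPH oxidase that makes hydrogen peroxide, fell from 38.3 and 28.2 CPM to 8.15 and 9.07 CPM. FAM84B, now named LRATD2, fell from 147 and 138 CPM to 40.6 and 38.7 CPM, and the KO lines lay between at 93.1 to 117 CPM. TRIM48 fell from 62.1 and 63.4 CPM to 14.6 and 13.6 CPM, while in KO5.2 it was under 1 CPM. GPR56, now ADGRG1, an adhesion receptor, fell from 92.4 and 90.3 CPM to 38.1 and 38.8 CPM and lay at 184 to 248 CPM in the KO lines. CEACAM1, an adhesion molecule, and CTLA4, the immune checkpoint receptor, fell by 1.32 and 1.34 on the log2 scale. TXNIP, which binds thioredoxin and limits glucose uptake, fell from 82.3 and 63.2 CPM to 28.6 and 22.0 CPM. The other genes of this group were TMEM163, LPAR6, ST6GALNAC2, CHAC1, DDIT4, EGR1 and JUN, of which the last 4 are described with their pathways.

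**Figure D1:**
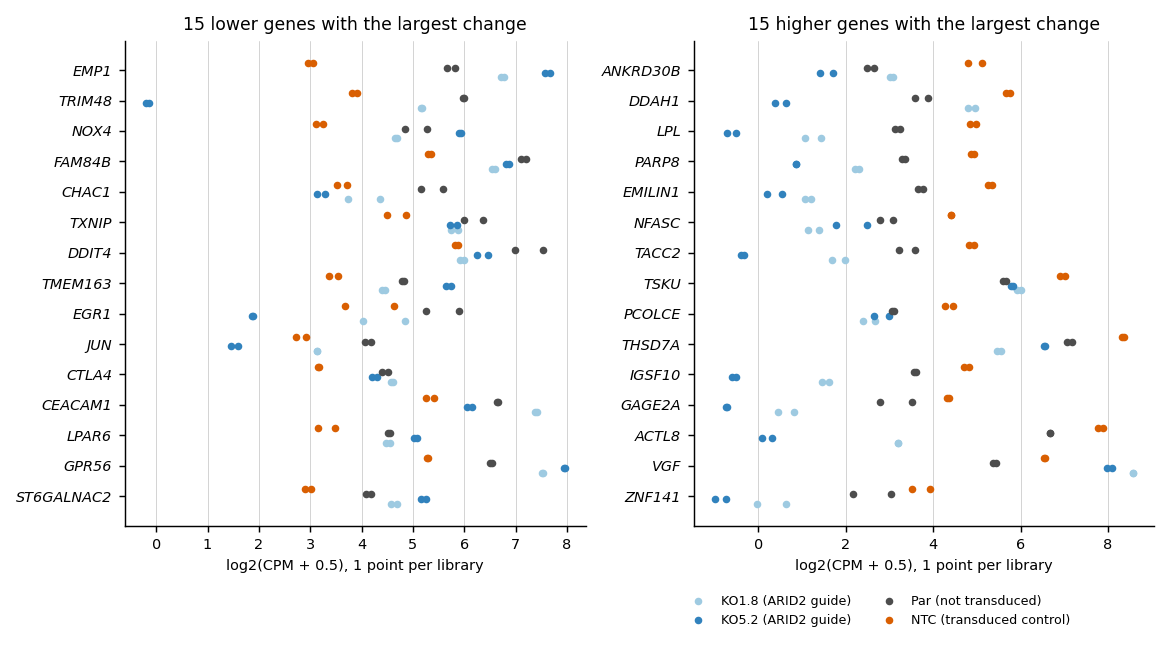
Level of the 15 lower and the 15 higher genes with the largest called change, as log2(CPM + 0.5) with 1 point per library. In the left panel the NTC points lie left of both Par points for every gene, and in the right panel they lie right of them; the ARID2 KO lines often lie on the far side of Par.

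Among genes at the same minimum level, ANKRD30B rose most, from 5.74 and 5.15 CPM in Par to 27.2 and 34.3 CPM in NTC (log2 fold change 2.50, SE 0.14, adjusted p = 2.79e-08). DDAH1, which degrades methylated arginines, rose from 11.5 and 14.3 CPM to 53.6 and 50.3 CPM, and was near 1 CPM in KO5.2. LPL, the lipase that releases fatty acids from lipoproteins, rose from 8.2 and 8.99 CPM to 28.1 and 30.8 CPM and lay at or under 2.22 CPM in the KO lines. EMILIN1, a glycoprotein of elastic fibres, rose from 12.2 and 13.1 CPM to 40.4 and 37.5 CPM. TSKU, a small leucine-rich secreted protein, rose from 48.3 and 50.5 CPM to 129 and 119 CPM. PCOLCE, which enhances procollagen processing, rose by 1.33 on the log2 scale (SE 0.13). THSD7A rose from 144 and 134 CPM to 332 and 321 CPM, above all other libraries. The others were PARP8, NFASC, TACC2, IGSF10, VGF, ZNF141, which lost its call without NTC replicate 2, without Par replicate 2 or in the DESeq2 Wald test, and 2 genes usually expressed in the testis, ACTL8 and GAGE2A. GAGE2A has near-identical copies between which reads could be split, so its value is uncertain.

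More pigment genes fell than rose, by small amounts. Of 21 tested genes for pigment enzymes and melanosome proteins, 12 were lower in NTC and 1 was higher, with a median log2 fold change of -0.26, against -0.01 over all genes tested. DCT, an enzyme of eumelanin synthesis, lay at 554 and 496 CPM in Par and at 346 and 298 CPM in NTC (log2 fold change -0.71, SE 0.07, adjusted p = 1.12e-05), and at 530 to 562 CPM in the KO lines. TYR, the rate-limiting enzyme of melanin synthesis, fell from 672 and 678 CPM to 543 and 535 CPM (log2 fold change -0.33, SE 0.05, adjusted p = 0.000398). Both KO lines lay near NTC for TYR, at 546 to 573 CPM, so here Par was the line apart. RAB27A, which tethers melanosomes to the actin cytoskeleton, fell from 258 and 251 CPM to 205 and 190 CPM. TYRP1, a melanosomal enzyme next to TYR in the pathway, went the other way, from 3212 and 3157 CPM to 4496 and 4232 CPM (log2 fold change 0.45, SE 0.06, adjusted p = 9.5e-05). PMEL and MLANA fell by 0.26 each on the log2 scale. The opposite course of TYRP1 left the summed level of the list alike, at 10974 to 11113 CPM in Par and 10638 to 11183 CPM in NTC.

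Of the transcription factors above these genes, 3 of 17 were called, all lower, with a median log2 fold change of -0.02. That share, 17.6%, was near the 15.7% of all genes tested. MITF had a log2 fold change of -0.12 (SE 0.05, adjusted p = 0.158) and SOX10 one of 0.11 (SE 0.06, adjusted p = 0.292), neither past the threshold. The 3 called were HEY1, a NOTCH target, at -0.83, IRF4, which cooperates with MITF at TYR, at -0.95, and RXRG, a nuclear receptor, at -0.40. IRF4 was at 13.3 and 13 CPM in Par and at 6.66 and 6.91 CPM in NTC. Among receptors and other signals of the lineage, 11 of 21 were lower and none higher, with a median of -0.23. ERBB3, the neuregulin receptor, fell from 10.7 and 10.3 CPM to 4.34 and 3.87 CPM, with the KO lines above Par at 25.5 to 33.9 CPM. EDNRB, the endothelin receptor that melanoblasts need, fell from 128 and 140 CPM to 76.7 and 75.9 CPM, again with the KO lines above, at 168 to 251 CPM. Without NTC replicate 2 or without Par replicate 1 this count was 7. In bulk RNA, fewer cells with a transcript and less transcript per cell cannot be told apart.

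The promoter of TYR is shown because it carries the motif CATGTG, the core of the E-box that MITF binds, in capitals, at 104 and 12 bases before the start. RefSeq (GRCh38.p14) places these 250 bases before the start at chr11:89177625-89177874, plus strand.
TYR: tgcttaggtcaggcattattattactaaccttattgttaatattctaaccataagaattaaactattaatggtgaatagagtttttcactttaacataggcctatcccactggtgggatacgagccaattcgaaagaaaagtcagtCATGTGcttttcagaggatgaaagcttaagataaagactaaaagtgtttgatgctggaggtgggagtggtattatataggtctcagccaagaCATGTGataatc
Among the promoters given by RefSeq for genes of the pigment list, 7 of 18 held CATGTG on either strand (38.9%), against 6.82% of the 10259 promoters of all tested genes, in windows of 300 bases from 250 before to 50 after the start. Over the whole comparison, 9.58% of promoters of called higher genes and 8.03% of those of called lower genes held it.

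Markers of undifferentiated and neural crest-like melanoma did not move as a block: of 17 tested, 4 were higher and 3 lower, with a median of -0.01. The 4 higher numbered 1 without NTC replicate 1 and 2 without Par replicate 1, and the 3 lower numbered 1 without NTC replicate 2. NES, an intermediate filament of neural progenitors, rose from 8.37 and 6.80 CPM to 13.9 and 11.3 CPM, and TWIST1, a factor of mesenchymal programs, from 49.7 and 48.1 CPM to 67.0 and 59.5 CPM. The other higher markers, named after their values were seen, had wider standard errors. They were NGFR (log2 fold change 5.37, SE 1.51, edgeR quasi-likelihood test, adjusted p = 0.0284) and THY1 (2.28, SE 0.49, same test, adjusted p = 0.00619). Levels of NGFR and THY1 are not given here, so both may lie near the floor of the counts, where fold changes are uncertain. EMP1 and NUPR1 of the same list fell. AXL, often used to mark this state, did not pass the filter on low counts.

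**Figure D2:**
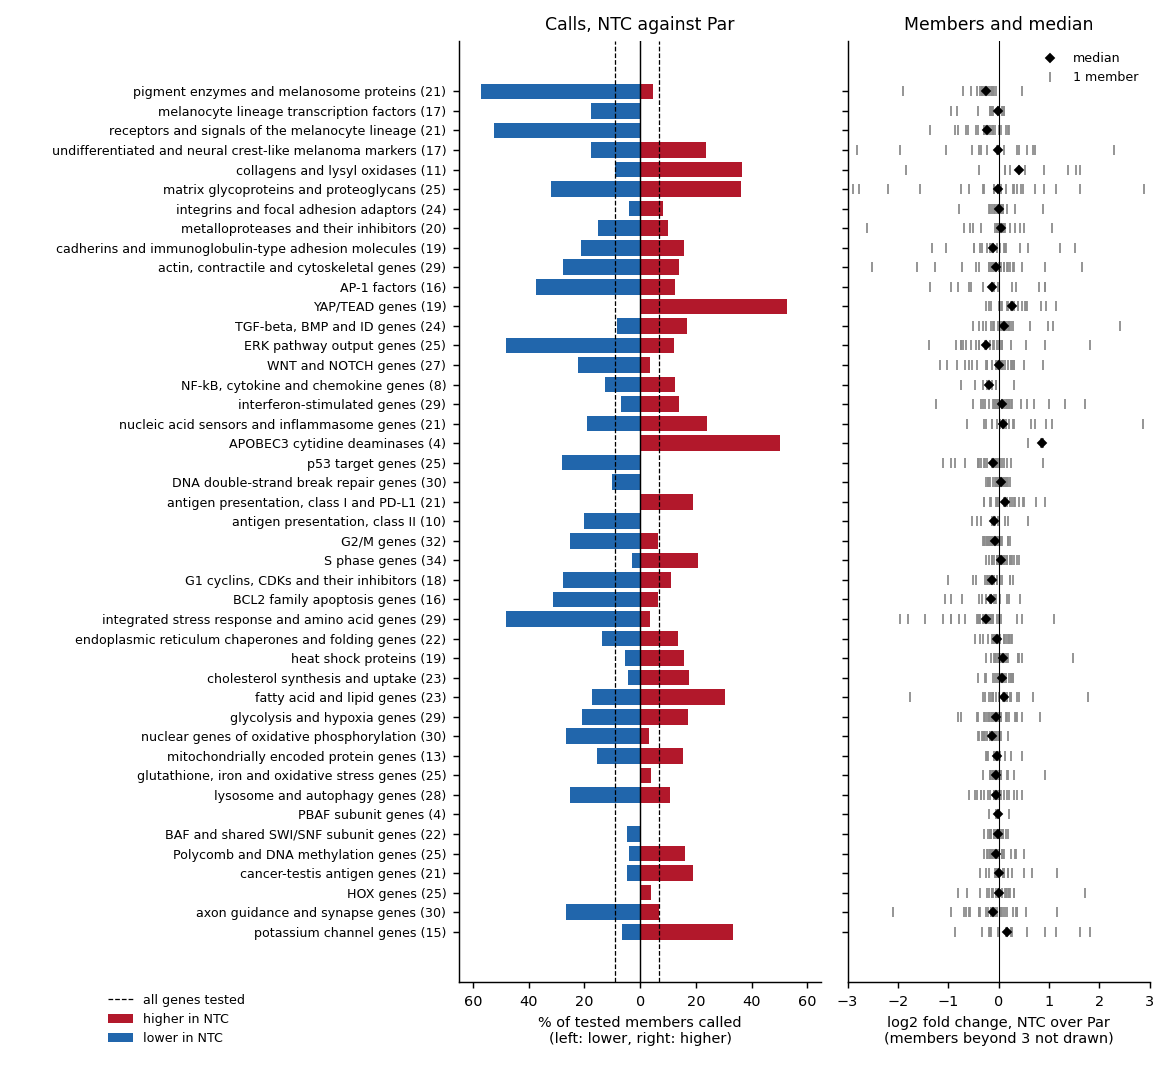
Left, share of the tested members of each gene list called lower (blue, to the left) or higher (red, to the right) in NTC, with the number tested in parentheses and dashed lines at 8.93% and 6.77%, the shares over all genes tested. Right, log2 fold change of every member (ticks) and the list median (diamonds). The pigment, stress response and ERK output lists have the lowest medians (-0.26, -0.26 and -0.25). The APOBEC3 list (0.85, 4 genes tested) and the collagen list (0.40) have the highest, followed by YAP/TEAD genes (0.27).

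Among YAP/TEAD genes, 10 of 19 rose. YAP1 is the co-activator that the Hippo pathway holds out of the nucleus, TEAD factors are its DNA-binding partners, and CTGF and CYR61 (now CCN2 and CCN1) are its standard targets. None of the 19 was called lower, 9 were not called, and the median log2 fold change was 0.27. YAP1 itself lay at 159 and 160 CPM in Par and at 233 and 236 CPM in NTC (log2 fold change 0.55, SE 0.06, adjusted p = 1.43e-05), above the 129 to 159 CPM of the KO lines. TEAD1 rose from 272 and 254 CPM to 374 and 387 CPM. CTGF rose from 15.7 and 16.4 CPM to 28.1 and 33.3 CPM (log2 fold change 0.94, SE 0.10), and CYR61 from 10.1 and 10.3 CPM to 16.9 and 19.3 CPM (0.83, SE 0.11). For these 4 genes the NTC libraries were the highest of the 8. The count was 5 without NTC replicate 1, and 6 without NTC replicate 2, without Par replicate 2 or in the DESeq2 Wald test.

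The promoter of CTGF shows the TEAD motif CATTCC as its reverse complement, in capitals, at 169, 104 and 95 bases before the start. RefSeq (GRCh38.p14) places these 250 bases at chr6:131951373-131951622, minus strand.
CTGF: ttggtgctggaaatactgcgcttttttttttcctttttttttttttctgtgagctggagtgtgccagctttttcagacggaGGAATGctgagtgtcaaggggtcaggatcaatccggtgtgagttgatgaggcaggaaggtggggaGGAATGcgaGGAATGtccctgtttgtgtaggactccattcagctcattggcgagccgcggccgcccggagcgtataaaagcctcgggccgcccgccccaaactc
In the YAP/TEAD list 6 of 14 promoters held CATTCC on either strand (42.9%), against 10.4% of all. It was held by 10.2% of the promoters of called higher genes and 11.3% of those of called lower genes.

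Among genes that report ERK pathway output, 12 of 25 were lower, 3 higher and 10 not called, with a median of -0.25. The 3 higher ones numbered 1 without NTC replicate 1, NTC replicate 2 or Par replicate 1. The Sprouty feedback inhibitors fell together: SPRY1 went from 39.3 and 35.7 CPM to 22.8 and 21.7 CPM, and SPRY4 from 68.7 and 63.2 CPM to 42.5 and 41.2 CPM (log2 fold change -0.66, SE 0.07, adjusted p = 1.93e-05). SPRY2, named after its values were seen, fell by 0.84 on the log2 scale. CCND1, cyclin D1, fell from 798 and 826 CPM to 600 and 582 CPM, against 991 to 1168 CPM in the KO lines. PHLDA1 fell from 145 and 135 CPM to 82.9 and 89.1 CPM. EGR1, an immediate early transcription factor, was uneven between libraries, at 59.4 and 37.6 CPM in Par and 12.3 and 24.4 CPM in NTC (adjusted p = 0.00315; 0.0558 in the DESeq2 Wald test). The phosphatase genes DUSP6 and DUSP4, which also answer to ERK, were not called, with log2 fold changes of -0.04 and -0.11 (named after their values were seen).

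AP-1 factors, the JUN, FOS and ATF proteins that act downstream of ERK and stress kinases, fell in 6 of 16 cases and rose in 2; neither rise held without NTC replicate 1 or without Par replicate 2. JUN fell from 16.2 and 17.7 CPM to 6.07 and 7.01 CPM (log2 fold change -1.37, SE 0.12, adjusted p = 3.57e-06). FOSL2 fell from 77.5 and 59.0 CPM to 47.8 and 43.0 CPM. MAF was nearly lost: 24 counts in each Par library stood against 0 and 1 in NTC. The KO lines held 1 count of MAF in 1 library and 0 in the other 3, so here Par was the line apart.

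Among genes of the integrated stress response, 14 of 29 were lower, 1 higher and 14 not called, with a median of -0.26. Its factors ATF4 and DDIT3 are switched on when cells lack amino acids or carry unfolded protein. CHAC1, which degrades glutathione, lay at 47.7 and 35.2 CPM in Par and at 12.7 and 11 CPM in NTC (log2 fold change -1.81, SE 0.18, adjusted p = 9.34e-06). The KO lines lay at 8.30 to 20.1 CPM, near NTC. DDIT4, an inhibitor of mTORC1, fell from 186 and 126 CPM to 58.0 and 55.7 CPM, and SESN2, another such inhibitor, from 80.3 and 51.8 CPM to 30.4 and 30.6 CPM. DDIT3 fell from 53.4 and 41.3 CPM to 26.2 and 22.8 CPM. For 11 of the 15 called genes of this list Par stood apart from all 6 libraries with a vector, with or without NTC apart on its other side; over all called genes this share was 20.5%. Par replicate 1 was the higher of the 2 Par libraries for each of these 4 genes. The number lower was 21 without Par replicate 2 and 8 without NTC replicate 2.

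The promoter of CHAC1 shows the ATF4-type motif TGATGNAA as its reverse complement, in capitals, 209 bases before the start. RefSeq (GRCh38.p14) places these 250 bases at chr15:40953221-40953470, plus strand.
CHAC1: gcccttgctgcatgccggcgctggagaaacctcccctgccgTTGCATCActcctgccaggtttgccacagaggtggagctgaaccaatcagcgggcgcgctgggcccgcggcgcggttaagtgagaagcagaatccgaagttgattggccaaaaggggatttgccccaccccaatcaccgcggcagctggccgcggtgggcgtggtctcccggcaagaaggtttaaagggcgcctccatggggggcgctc
The motif was in 6 of 22 promoters of the stress response list (27.3%) and in 1.62% of all promoters. Of promoters of called lower genes 2.22% held it, and of called higher genes 1.24%.

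Of 22 endoplasmic reticulum chaperone and folding genes, 3 were higher and 3 lower; without NTC replicate 1 none was higher and 1 lower, and without NTC replicate 2 or Par replicate 1 there was 1 of each. XBP1, a factor of the unfolded protein response, fell by 0.47 on the log2 scale, while the chaperone genes HYOU1, PDIA4 and HSPA5 rose by 0.21 to 0.26. Calls made up 27.3% of this list and 21.1% of the heat shock list, against 15.7% of all genes. Among heat shock proteins 3 of 19 were higher and 1 lower; none was called without NTC replicate 2, and 6 were higher without Par replicate 2. Some p53 target genes are counted in other lists too: SESN2 in the stress response list, BBC3 and PMAIP1 in the BCL2 list, and GDF15 among the lineage receptors and signals. With these, p53 target genes included 7 lower and none higher of 25, namely GDF15, SESN2, BBC3, CCNG1, RRM2B, FUCA1 and PMAIP1. Their number was 2 without NTC replicate 2. Genes for the repair of DNA double-strand breaks, the lesion that Cas9 makes, were called in 3 of 30 cases (10.0%, under the 15.7% of all genes): RNF8, ATM and FANCI, lower by 0.18 to 0.26. None of these 3 calls held without NTC replicate 1 or without Par replicate 2.

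Matrix genes changed in both directions. Of 25 matrix glycoproteins and proteoglycans 9 were higher and 8 lower (68.0% called), with a median of -0.02. EMILIN1, given above, was among the higher ones, and 3 of those with the smallest p were lower. GPC5, a heparan sulfate proteoglycan, fell from 7.96 and 7.81 CPM to 1.13 and 0.981 CPM, and SDC3, a syndecan, from 546 and 499 CPM to 327 and 296 CPM. TNS1, a focal adhesion adaptor, fell from 3.81 and 4.44 CPM to 0.238 and 0.294 CPM. All 3 lay above Par in both KO lines. Of 11 collagens and lysyl oxidases 4 were higher and 1 lower, with a median of 0.40. COL18A1 rose from 3.75 and 3.78 CPM to 11.3 and 11.8 CPM, and COL6A2 from 2.63 and 2.72 CPM to 7.14 and 6.72 CPM, whereas COL9A3 fell from 11.5 and 11.4 CPM to 3.45 and 2.94 CPM. Integrins and their adaptors were called in 3 of 24 cases (12.5%, against 15.7% of all genes tested), PARVA and VCL higher and TNS1 lower. TNS1 is a member of both this list and the matrix list, so its call is counted in each. LTBP1, which stores latent TGF-beta in the matrix, rose from 16 and 14.4 CPM to 33.2 and 31.0 CPM, and 4 of 24 TGF-beta, BMP and ID genes were higher and 2 lower (2 and 1 without NTC replicate 1 or without Par replicate 2).

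Innate immune genes are of interest because lentiviral transduction brings foreign nucleic acid into the cell. Interferon-stimulated genes were near background: 4 of 29 were higher and 2 lower (20.7% against 15.7%), with a median of 0.06. IFIT5 rose from 15.8 and 16.7 CPM to 24.9 and 23.4 CPM, and IFITM3 from 8.61 and 8.28 CPM to 14.7 and 12.7 CPM. The much used reporters ISG15 and IFIT1 had log2 fold changes of -0.02 and 0.10 and were not called (named after their values were seen). The list's 6 calls were few without a library: 1 higher without NTC replicate 1 and 2 higher without any of the other 3 libraries. The cytidine deaminases APOBEC3B and APOBEC3A rose, from 29.3 and 32.0 CPM to 57.4 and 56.1 CPM and from 13.4 and 12.5 CPM to 22.5 and 25.1 CPM; their sequences are near-identical in part, so reads may be split between them. In the KO lines APOBEC3B was at 3.27 to 9.52 CPM. Of 21 sensor and inflammasome genes 5 were higher and 4 lower. DFNA5 (now GSDME), which forms pores in dying cells, rose from 17.1 and 15.9 CPM to 31.7 and 31.6 CPM, while the RNA sensor IFIH1 fell from 16.7 and 17.9 CPM to 11.5 and 11 CPM. Class I antigen presentation genes were called in 4 of 21 cases, all higher (19%, near the 15.7% of all genes tested; 2 without NTC replicate 1). The immunoproteasome subunit PSMB9 was at 0.92 on the log2 scale. PSMB9 was at 16.7 and 17.6 CPM in Par and at 26.0 to 34.2 CPM in all libraries with a vector.

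Some genes were near absence in NTC. In 21 genes the 2 NTC libraries together held at most 3 counts, while the 2 Par libraries together held 37 to 144 and averaged at least 1 CPM. Only 2 genes met the reverse, SLC19A3, a thiamine transporter, and OSCAR, a receptor for collagen; OSCAR lost its call without NTC replicate 2 and in the DESeq2 Wald test. GJA3, a connexin of gap junctions, had 70 and 74 counts in Par and 1 in each NTC library. PRKAA2, a catalytic subunit of the AMP-activated kinase, had 45 and 58 counts in Par and 0 in both NTC libraries. GSDMD, the pore protein of pyroptosis, had 44 and 37 counts in Par and 1 and 0 in NTC. DSC2, a desmosomal cadherin, had 38 and 36 counts in Par and 1 and 2 in NTC. SAGE1, a cancer-testis gene, had 48 and 34 counts in Par and 2 and 0 in NTC. KO1.8 averaged at least 1 CPM for 16 of the 21 and KO5.2 for 10, the same 10 being present in both. MAF and PTPRN2, the latter named after its values were seen, were near absence in all 3 lines with a vector.

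Of the 21 genes, 9 had zinc finger (ZNF) symbols, and all 9 lie on chromosome 19, where clusters of KRAB zinc finger genes encode repressors that mostly bind transposable elements. ZNF160 had 75 and 65 counts in Par and 2 and 1 in NTC, ZNF43 had 64 and 70 against 0 and 1, and ZNF383 had 41 and 28 against 0 and 3. This set was examined further after these values were seen, so what follows is a description. Of 184 tested ZNF genes of chromosome 19, 70 were called lower in NTC and none higher, that is 38.0% called, with a median log2 fold change of -0.34. Of these, 50 were lower by more than 2-fold. ZNF genes elsewhere in the genome were called in 13.5% of 237 cases, 22 lower and 10 higher, with a median of -0.01. The other 712 tested genes of chromosome 19 were called in 13.6% of cases, 69 lower and 28 higher, with a median of -0.05.

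Among the more highly expressed of the 70, ZNF100 fell from 12.4 and 14.8 CPM to 0.833 and 0.589 CPM (log2 fold change -4.26, SE 0.21, adjusted p = 7.95e-09), with 7.35 to 16.9 CPM in the KO lines. ZNF254 fell from 12 and 13.1 CPM to 4.04 and 3.92 CPM, and ZNF700 from 6.73 and 7.22 CPM to 2.20 and 2.80 CPM (these 3 were picked after their values were seen). The summed level of the 70 genes was 345 and 337 CPM in the Par libraries, 161 and 163 CPM in NTC, 516 and 499 CPM in KO1.8 and 355 and 353 CPM in KO5.2. For 63 of the 70 the NTC libraries were below all 6 others. The falls were spread over the chromosome: with its tested genes put in order and cut into 10 equal groups, groups 2, 3, 5, 6, 9 and 10 held 4, 7, 12, 10, 18 and 17 of the 70. Group 7 held 23 tested ZNF genes, of which 1 fell. ZNF paralogs are alike in sequence, so reads may be split between copies. The count was 45 without NTC replicate 1 and 43 without NTC replicate 2.

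The promoters of ZNF160 and ZNF43 are shown as examples of genes that went from clear expression to near absence; CG pairs, the sites of DNA methylation, are in capitals. RefSeq (GRCh38.p14) places these 250 bases before the start at chr19:53103423-53103672, minus strand, and chr19:21836183-21836432, minus strand.
ZNF160: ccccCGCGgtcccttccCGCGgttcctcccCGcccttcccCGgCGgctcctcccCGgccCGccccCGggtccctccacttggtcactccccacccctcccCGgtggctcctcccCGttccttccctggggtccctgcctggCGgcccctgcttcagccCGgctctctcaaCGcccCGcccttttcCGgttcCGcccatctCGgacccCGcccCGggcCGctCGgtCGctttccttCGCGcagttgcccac
ZNF43: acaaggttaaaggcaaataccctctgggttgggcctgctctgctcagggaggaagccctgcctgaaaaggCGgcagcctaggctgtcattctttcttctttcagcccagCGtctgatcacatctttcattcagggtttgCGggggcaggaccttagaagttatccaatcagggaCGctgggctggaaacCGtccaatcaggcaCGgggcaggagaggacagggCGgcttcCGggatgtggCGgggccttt
The first holds 26 CG pairs and the second 9. In windows of 300 bases, the 63 promoters of called ZNF genes of chromosome 19 had a median of 20 CG pairs, the 101 promoters of its ZNF genes that were not called had 22, and all 10259 promoters had 26. The methylation of these promoters was not measured here.

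**Figure D3:**
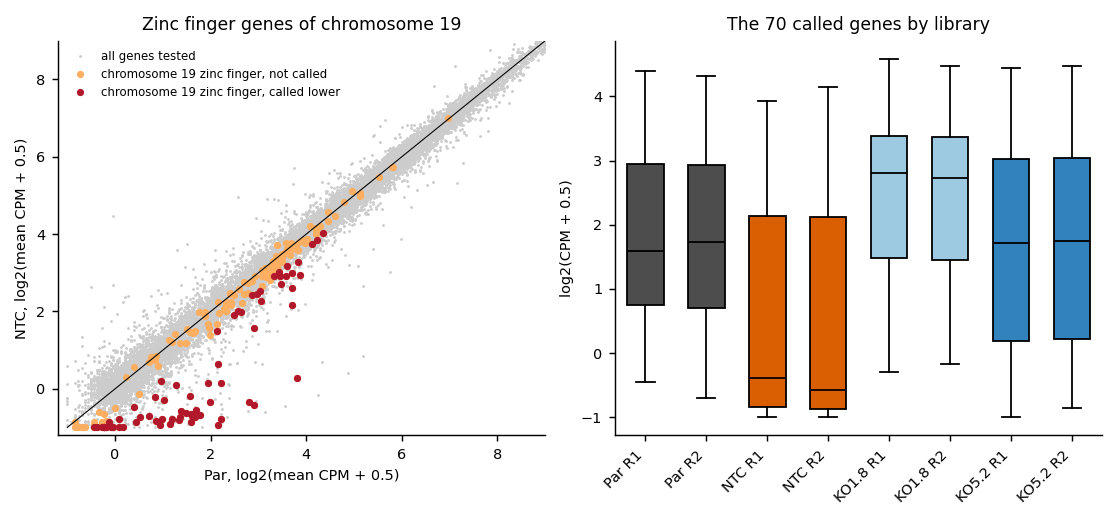
Left, mean level in NTC against Par on the log2(CPM + 0.5) scale for all genes tested (grey), ZNF genes of chromosome 19 not called (orange) and called lower (red), with the line of equal level. Right, box plots of the 70 called genes in each library (box, interquartile range; line, median; whiskers, within 1.5 box lengths): the NTC boxes lie lowest and the KO1.8 boxes highest.

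Long stretches of some chromosomes were shifted in 1 direction. Among genes at a mean log2 CPM of at least 1, the 466 genes of chromosome 10 had a median log2 fold change of 0.18, with 164 higher and 20 lower (39.5% called, against 18% of all 11811 such genes, whose median was -0.01). Cut into 10 groups in order along the chromosome, the first 2 had medians of 0.06 and -0.03, and all others, from the one that starts at CREM, had medians of 0.17 to 0.28. Chromosome 13 had a median of -0.18 over 235 genes, with 11 higher and 78 lower; its last group, from RAB20 to CHAMP1, was at 0.15 and the other 9 at -0.07 to -0.27. Chromosome 20 had a median of -0.12 over 315 genes, with 7 higher and 77 lower. On chromosome 6 the first group, from DUSP22 to FAM8A1, had a median of -0.25, with 29 of 64 genes lower. Both NTC libraries showed these shifts alike: chromosome 10 lay 0.11 and 0.12 above the mean of the 8 libraries in NTC and 0.07 and 0.06 below it in Par. KO5.2 lay 0.09 and 0.10 above it and KO1.8 0.16 and 0.12 below. DNA was not measured here, so whether copy number moved with these medians was not tested. Genes named in this report that lie on chromosome 13 include DCT, EDNRB, GPC5, GJA3, LPAR6, LCP1 and KCTD12. Those on chromosome 10 include TACC2, VCL, IFIT5, DDIT4, HK1 and FRMD4A. On chromosome 20 lie COL9A3, SS18L1, JAG1 and CEBPB, and on chromosome 6 IRF4, FABP7, CTGF and PSMB9. Of these, KCTD12, DDIT4, CTGF and PSMB9 moved against the median of their chromosome.

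**Figure D4:**
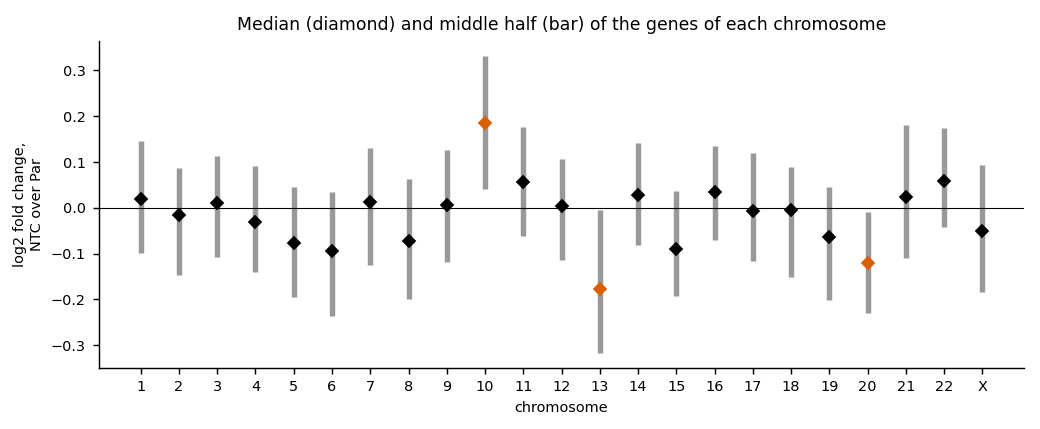
Log2 fold change of NTC over Par by chromosome, for genes at a mean log2 CPM of at least 1: diamonds are medians and bars the interquartile range of the genes. Chromosome 10 (median 0.18), chromosome 13 (-0.18) and chromosome 20 (-0.12), in orange, lie farthest from 0.

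The proliferation and metabolism lists given here had median log2 fold changes between -0.16 and 0.11, while single members moved more. Over all genes tested 15.7% were called. The share was 47.8% in the fatty acid list, 37.9% in the glycolysis list, 23.5% in the S phase list and 21.7% in the cholesterol list. Of 34 S phase genes 7 were higher and 1 lower, and of 32 G2/M genes 2 were higher and 8 lower, with medians of 0.04 and -0.08. TK1 rose by 0.31 on the log2 scale and DLGAP5 fell by 0.29. These counts rest on single libraries: 1 S phase gene was called higher without NTC replicate 1, without NTC replicate 2 or without Par replicate 1. The G2/M genes called lower numbered 1 without NTC replicate 1 and 4 without NTC replicate 2 or without Par replicate 2. CDKN2B and CDKN1B, inhibitors of cyclin-dependent kinases, fell by 1.00 and 0.51. Among genes of the BCL2 family 5 of 16 fell and 1 rose: HRK, BBC3 and BMF, which promote cell death, fell by 1.07, 0.94 and 0.73, and BCL2, which prevents it, rose by 0.42 (SE 0.07, adjusted p = 0.000748). The 5 that fell numbered 2 without NTC replicate 2 or Par replicate 1, and 3 without NTC replicate 1. Of 30 nuclear genes of oxidative phosphorylation 8 were lower and 1 higher, with a median of -0.12; 3 were lower without either NTC library, 4 without Par replicate 2, and the higher one was lost without any of the 4 libraries. Glycolysis and hypoxia genes split into 5 higher (3 without NTC replicate 1) and 6 lower of 29: the glucose transporter SLC2A1 fell from 102 and 109 CPM to 58.7 and 61.5 CPM, and the hexokinase HK1 rose from 225 and 207 CPM to 307 and 290 CPM. Of 23 fatty acid and lipid genes 7 were higher (3 without NTC replicate 1, 4 without NTC replicate 2 or Par replicate 2) and 4 lower (2 without NTC replicate 2 or Par replicate 1); FABP7, a fatty acid carrier of neural crest derivatives, fell from 11.6 and 13.1 CPM to 3.98 and 3.33 CPM. Mitochondrially encoded genes were split at 2 higher and 2 lower of 13, and lysosome and autophagy genes at 3 higher and 7 lower of 28. Cholesterol genes were higher in 4 and lower in 1 of 23 cases, and none was higher without NTC replicate 2 or without Par replicate 1. Glutathione, iron and oxidative stress genes stayed under the background share, with 1 of 25 called, TFRC.

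The other transduced control of the series, NT in SKmel147, a metastatic melanoma line with NRAS Q61R, carried Cas9 and the guide on separate lentiviral constructs. It was compared with its own Par in a separate fit that shares no library. There, 1702 of 18361 genes were called (9.27%), 702 higher (3.82%) and 1000 lower (5.45%). Its 2 libraries per line lay farther apart, with chi-square over degrees of freedom at 35.2 for NT and 35.1 for Par, against 2.76 for NTC and 4.51 for Par of 501mel. In 501mel the fold changes had a Spearman rho of 0.18 with the GC content of the genes. The R2 minus R1 deviations of its libraries had a rho of -0.19 in NTC and -0.10 in Par. The fold changes of SKmel147 followed GC content more closely, at a rho of -0.46. For SKmel147 the part of GC content in the difference was not tested gene by gene. Its count was 436 without NT replicate 1 and 889 without Par replicate 2. Of the 14681 genes tested in both cell lines, 324 were called in both. These made up 14.4% of the 2257 calls of 501mel among them, against 9.38% of all 14681 genes called in SKmel147. They made up 23.5% of the 1377 calls of SKmel147, against 15.4% of all 14681 genes called in 501mel. In 132 the sign was the same, 43 higher and 89 lower, and in 192 it was opposite. Across all 14681 genes, which are not independent replicates, Pearson's r of the 2 fold changes was -0.08 and Spearman's rho -0.08, given as a description.

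**Figure D5:**
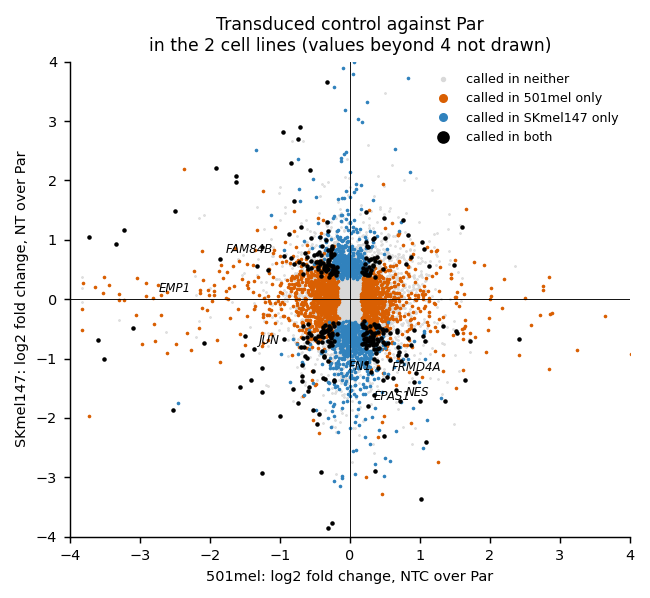
Log2 fold change of the transduced control over Par in 501mel (horizontal) and SKmel147 (vertical), 1 point per gene, coloured by where it was called. The points spread along both axes and no diagonal is seen (r = -0.08); genes with a change in 501mel such as EMP1 lie near 0 in SKmel147.

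Genes with the same direction in both cell lines included JUN, at -1.37 in 501mel and -0.85 in SKmel147, GPR56, at -1.25 and -1.56, and PHLDA1, at -0.70 and -0.80. GADD45A, a stress-induced gene, was at -0.67 and -0.65, and CEBPB, a bZIP factor, at -0.68 and -1.11. MAGEA1, KCTD12, F2R, ZNF141 and NUDT11 were higher in both. In the interaction test, 9 of the 19 YAP/TEAD genes and 14 of the 29 stress response genes differed between the cell lines, against 10.1% of all 19518 genes tested (1970 called). Other lists had like shares, such as 11 of 23 cholesterol genes, 10 of 25 matrix genes and 11 of 29 actin and cytoskeletal genes. For YAP1 the difference was 0.72 (adjusted p = 0.00296), and for CHAC1 it was -2.16 (adjusted p = 0.00123). Of the 70 ZNF genes of chromosome 19 lower in 501mel, 69 were tested in SKmel147, where 2 were higher and 2 lower with a median of 0.18. A called difference was found for 56 of the 70. These genes were picked for their fall in 501mel, which is part of that difference, so this count is no test. Of all 2547 genes called in 501mel, 860 had a called difference. Of the 21 pigment genes 12 were tested in SKmel147, and 1 of the 21 had a called difference.

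Among the remaining lists, structural genes split in both directions: 4 of 29 actin and cytoskeletal genes were higher and 8 lower, 3 of 19 cadherins and immunoglobulin-type adhesion molecules higher and 4 lower, and 2 of 20 metalloproteases and inhibitors higher and 3 lower. LCP1, an actin bundler of blood cells and many tumours, fell by 1.63 on the log2 scale, and FLNA, filamin A, rose by 0.47. Of 27 WNT and NOTCH genes 6 were lower and 1 higher; JAG1, a NOTCH ligand, fell by 0.67 and AXIN2, a feedback target of WNT, by 0.58. Of 30 axon guidance and synapse genes 8 were lower (4 without NTC replicate 1, 5 without Par replicate 1) and 2 higher; PLXNA2, a semaphorin receptor, fell by 2.10 on the log2 scale. Potassium channels were higher in 5 and lower in 1 of 15 cases, among them KCNH1, which rose by 1.61. Of 18 G1 cyclins, CDKs and inhibitors 5 were lower (3 without NTC replicate 1) and 2 higher (none without NTC replicate 1 or Par replicate 1). Of 8 NF-kB and cytokine genes 1 was higher and 1 lower, and 2 of 10 class II antigen presentation genes were lower. Of 25 Polycomb and DNA methylation genes 4 were higher (1 without NTC replicate 1, 2 without Par replicate 2) and 1 lower; UHRF1, which brings DNMT1 to newly copied DNA, rose by 0.33 and TET1, which oxidises methylated cytosine, by 0.35. Cancer-testis antigens were higher in 4 and lower in 1 of 21 cases, and 1 of 25 HOX genes was called, HOXA7, whose call was lost without any of the 4 libraries. The background for these counts is the 15.7% called among all genes tested, 6.77% higher and 8.93% lower. The HOX list lay below it. The class II, Polycomb, cancer-testis, metalloprotease, NF-kB and WNT and NOTCH lists lay above it, at no more than 25.9%. In lists this small, such shares are not read as a change of the family. The other lists of this paragraph lay at 33.3% to 41.4%.

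Motifs were compared over the whole contrast for completeness. The palindromic E-box CACGTG was in 10.4% of all promoters, in 11.4% of those of called higher genes and 8.40% of those of called lower genes. The AP-1 motif TGANTCA was in 4.24% of all promoters, in 4.85% of those of called higher and 5.45% of those of called lower genes. A match is a description of the letters in these windows. The pigment, YAP/TEAD and stress response lists were put together by pathway, so their motif shares do not bear on NTC against Par.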

How the data were processed

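Gene counts of 18 polyA RNA libraries were deposited by the authors as raw, unnormalized counts per gene symbol, 1 table for each cell line. Reads were aligned with STAR 2.6.0 and counted with featureCounts on GRCh37/hg19, per the submitters' processing notes; the kit was directional, per the labels' protocols. The strand setting of the counting is not given in the sources used here, so antisense and overlapping genes are uncertain.

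The counts were tested with edgeR 4.0.16 (R 4.3.3): genes were filtered by filterByExpr, libraries scaled by TMM, and a quasi-likelihood model with 1 term for each line was fitted over all 8 libraries of 501mel. NTC minus Par was tested on it with Benjamini-Hochberg adjustment over all genes tested. SKmel147 was fitted separately over its 10 libraries, and the difference between the cell lines was tested in 1 fit over all 18. The fits were tested on simulated counts first. limma 3.58.1 (voom) and DESeq2 1.42.0 served as alternatives, beside other scaling, no filter, GC and length correction, a replicate block and leaving out each library. CPM values are counts per 1000000 of the library total times its TMM factor. With 2 libraries against 2, an exact permutation test cannot go below p = 0.333, so no such test was made for single values. Each library's total sets the counting error only.

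Genes were named by rule: the 15 higher and 15 lower genes with the largest change among called genes at a mean log2 CPM of at least 3 whose libraries did not overlap; up to 4 members of each of 48 gene lists by smallest p; up to 8 genes per direction with at most 3 counts in both libraries of 1 line and a mean of at least 1 CPM in the other; ARID2; 5 genes per direction that were called alike in both cell lines, and 5 per direction that differed most. The comparison, lists and rule were chosen with earlier results of these data known. Other genes given with values (PMEL, MLANA, MITF, SOX10 as lineage markers aside) were picked after their values were seen. Of 56629 symbols, 35335 matched GENCODE 29, 1268 of them through an older symbol. Promoters came from RefSeq (GRCh38.p14), matched by symbol.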

Additional observations from a re-analysis of the deposited data

Results flagged for a closer look

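The contrast of the transduced control with its parent differed between 501mel and SKmel147 for 1970 genes (interaction term of the joint edgeR quasi-likelihood fit, adjusted p under 0.05). Values here are differences of log2 fold changes, 501mel minus SKmel147, for the 5 genes in each direction with the smallest p among those at a mean log2 CPM of at least 3 in both cell lines.

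EMP1 differed by -2.83, as it fell in 501mel (-2.81) and was at 0.02 in SKmel147. FAM84B differed by -2.53 and IVNS1ABP, a kelch protein, by -1.65; both fell in 501mel and rose in SKmel147. NES differed by 2.45, FRMD4A by 1.84 and EPAS1, the hypoxia factor HIF-2 alpha, by 2.06; all 3 rose in 501mel and fell in SKmel147. For the remaining 4, only the SKmel147 contrast was called. OAS3, an interferon-induced sensor, differed by 1.66 and FN1, fibronectin, by 1.2, with log2 fold changes of -1.74 and -1.29 in SKmel147. ATP11A, a flippase, differed by -1.54 and ZNF704 by -1.82, with rises of 1.42 and 1.70 in SKmel147. The vectors and driver mutations differ with the cell line, so their parts cannot be told apart.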

How the results depend on the processing

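The 2547 calls of NTC against Par lay between 2246 and 2961 with only the 4 libraries in the fit, DESeq2 size factors, voom, no filter, or GC and length correction. The DESeq2 Wald test made 1590 calls, 1588 of them shared. Of the 2547, 439 passed 2-fold. Leaving out 1 library gave 1310 to 1907. In SKmel147 (1702 calls), no filter gave 2680, GC and length correction 3151, and leaving out 1 library 436 to 2375. The difference between the cell lines (1970 calls) ranged from 985 without NTC replicate 1 of 501mel to 3014 without Par replicate 1 of SKmel147; it was 1096 to 1204 without any other 501mel library and 1179 without NT replicate 1. No direction reversed. Of 211 named genes, 18 to 39 lost their call when 1 library was left out and 13 in the DESeq2 Wald test. Of the counts of list members called in a direction, 24 to 36 moved by over 1.5 times when 1 library was left out and 21 in the Wald test; the cause was not tested. Without the filter, adjusted p-values of single genes ran far lower (7.95e-44 for EGR1, uneven between replicates), so that fit was read for its counts only.

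With a replicate block, calls numbered 3560 in 501mel, 1610 in SKmel147 and 1906 for the difference. The labels give shared replicate numbers and no shared source. The R2 minus R1 deviations of NTC and Par correlated at r = 0.243 across genes in 501mel and 0.542 in SKmel147. With 2 pairs a pairing was not established. Precision is limited by 2 libraries per line.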
